A study of Mus musculus with 12 samples.

Results

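The genes described are 39 enzymes and subunits of pyruvate entry, the tricarboxylic acid (TCA) cycle and mitochondrial fatty acid oxidation, chosen by gene name from a deposited table of 21834 protein-coding genes. Of these, 26 belong to pyruvate entry and the TCA cycle and 13 to fatty acid oxidation. RNA was sequenced from BV2 cells, an immortalized mouse microglial line, in which a stably integrated lentiviral shRNA lowered Anxa2 (shAnxa2) or a control shRNA was carried (shCtrl). Both lines had been selected with puromycin, and nothing in the sources used here says that more than 1 stable line was made per shRNA. Each line was either kept in normal medium (CTRL) or taken through oxygen-glucose deprivation and reoxygenation (OGD/R), a culture model of ischemia and reperfusion. This gave 4 groups of 3 libraries each. Deprivation lasted 4 h, in glucose-free medium at 1% oxygen. The labels give 12 h of reoxygenation, whereas the study's general methods give a longer time for BV2 cells. Groups were taken from the sample titles, since a second label field assigns cells to treatments differently. The study calls the 3 libraries of a group biological replicates.

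The TCA cycle oxidizes acetyl-CoA in the mitochondrial matrix and passes the electrons to the respiratory chain as NADH and reduced flavin. Acetyl-CoA comes from pyruvate, through the pyruvate dehydrogenase complex, or from fatty acids, which enter the matrix as carnitine esters and are shortened by repeated rounds of dehydrogenation, hydration, dehydrogenation and thiolysis. In macrophages and microglia, inflammatory stimulation is known to lower the flow through parts of the cycle, to divert citrate and aconitate to export and itaconate, and to raise glycolysis.

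Total counts per library ranged from 19521877 to 27288843. The targeted gene Anxa2 (ENSMUSG00000032231) was at 165 to 177 CPM (read counts scaled to the total of the library) in shCtrl CTRL, 251 to 295 in shCtrl OGD/R, 35 to 44.4 in shAnxa2 CTRL and 18.2 to 20.6 in shAnxa2 OGD/R, so that all 6 shAnxa2 libraries lay below all 6 shCtrl libraries. Of the microglial markers, Tyrobp was at 117 to 207 CPM in every library and C1qa at 0.0489 to 2.76. Neuronal Rbfox3 and endothelial Cldn5 did not exceed 0.167 CPM, and oligodendrocyte Mbp was at 2.76 to 5.42. Other markers reached higher levels than Rbfox3 and Cldn5, with neuronal Tubb3 at up to 0.919 CPM and Map2 at up to 0.755. Endothelial Pecam1 reached 0.626 and astrocyte Gfap 0.305. The line labels were thus checked by Anxa2, and no gene was set as a check of the treatment labels. After OGD/R Anxa2 itself changed by 0.70 ± 0.06 (SE, adjusted p = 1.21e-09) in shCtrl and -1.04 ± 0.08 (SE, adjusted p = 3.05e-10) in shAnxa2, on the log2 scale. The library of shAnxa2 OGD/R replicate 1 held 66525 counts of Lars2, against at most 2670 in any other library. The profiles of the 3 shAnxa2 OGD/R libraries over the 39 genes were 0.0964 to 0.121 log2 units apart (root mean square), against 0.0667 to 0.132 within the other groups. Chi-square per gene, averaged over genes with Lars2 included, measures difference beyond counting error. It was 10.13 and 13.28 for replicate 1 against its replicates 2 and 3, and 4.00 to 7.25 for all other replicate pairs. Lars2 alone raises the first 2 of these means, which were not computed without it, so they do not show a wider difference of replicate 1.

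All 39 genes passed the level filter (0.5 CPM or more in 3 or more libraries), with 74 counts (Etfb) to 18345 counts (Cs) per library. CPM divided by the length of the principal transcript in kb ranks the levels of different genes. In shCtrl CTRL the highest level per kb was that of Mdh2, the mitochondrial malate dehydrogenase, at 418 CPM per kb. Sdhd, a membrane anchor of succinate dehydrogenase, followed at 267, Cs, citrate synthase, at 228, and Idh2, the mitochondrial NADP-dependent isocitrate dehydrogenase, at 180.2. The lowest levels per kb were those of Etfb at 6.0, Cpt2 at 6.47, Cpt1a at 9.98 and Me1 at 13.5. Summed over the 39 genes, CPM was 6612 to 6776 in shCtrl CTRL, 7480 to 7519 in shCtrl OGD/R, 7558 to 7675 in shAnxa2 CTRL and 6896 to 7037 in shAnxa2 OGD/R. The 4 ranges did not overlap, and the sum was lowest in untreated control cells and highest in untreated knockdown cells.

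Most of the 39 genes rose after OGD/R in the shCtrl line and fell, or did not pass the test, in the shAnxa2 line. Here and in what follows, treatments are as the sample titles give them. With edgeR's quasi-likelihood test and Benjamini-Hochberg adjustment over all 11626 genes tested, 24 genes rose after OGD/R in shCtrl and 5 fell (Pdhx, Cs, Idh3a, Me1 and Cpt1a), at an adjusted p under 0.05. Of all genes tested, 32.4% rose and 31% fell. The median log2 fold change was 0.19 over the 39 genes and near 0 (0.0045) over all genes tested. In shAnxa2, 2 genes rose after OGD/R (Idh3b and Cpt1a) and 22 fell, where 28.2% of all genes tested rose and 26.8% fell. The median was -0.14 over the 39 genes and 0.0044 over all. At a fold of at least 1.5, OGD/R changed 5 genes in shCtrl (Pcx, Echs1, Cpt2 and Acadl up, Cpt1a down) and 2 in shAnxa2 (Cpt1a up, Echs1 down). By the same rule 20.1% and 12.1% of all genes tested changed, higher shares than among the 39. Without shAnxa2 OGD/R replicate 3, the 2 genes became 1.

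Between the lines the order depended on the treatment. In CTRL, 25 genes were higher in shAnxa2 than in shCtrl and 5 were lower (Cs, Idh3a, Cpt1a, Acadm and Etfb), against 29.5% and 29.7% of all genes tested. After OGD/R, 9 were higher and 21 lower, against 33.8% and 34.2%. Medians were 0.23 in CTRL and -0.12 after OGD/R, with 0.00073 and -0.0033 over all genes tested. At least 1.5-fold differences were found for 2 genes in CTRL (Pcx and Acaa2, both higher in shAnxa2; 15.6% of all genes) and for 3 after OGD/R (Cpt1a and Me1 higher, Echs1 lower; 26.3% of all genes). The count of 9 higher genes after OGD/R fell to 5 when shAnxa2 OGD/R replicate 3 was left out. The interaction of line and OGD/R, which is the OGD/R change in shAnxa2 minus that in shCtrl on the log2 scale, passed the test as negative for 26 genes and as positive for 5 (Pdhx, Cs, Idh3a, Me1 and Cpt1a). It was negative for 35.1% and positive for 34.9% of all genes tested. For 10 of the 39 genes and 41.8% of all genes it was also at least 1.5-fold.

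**Figure D1:**
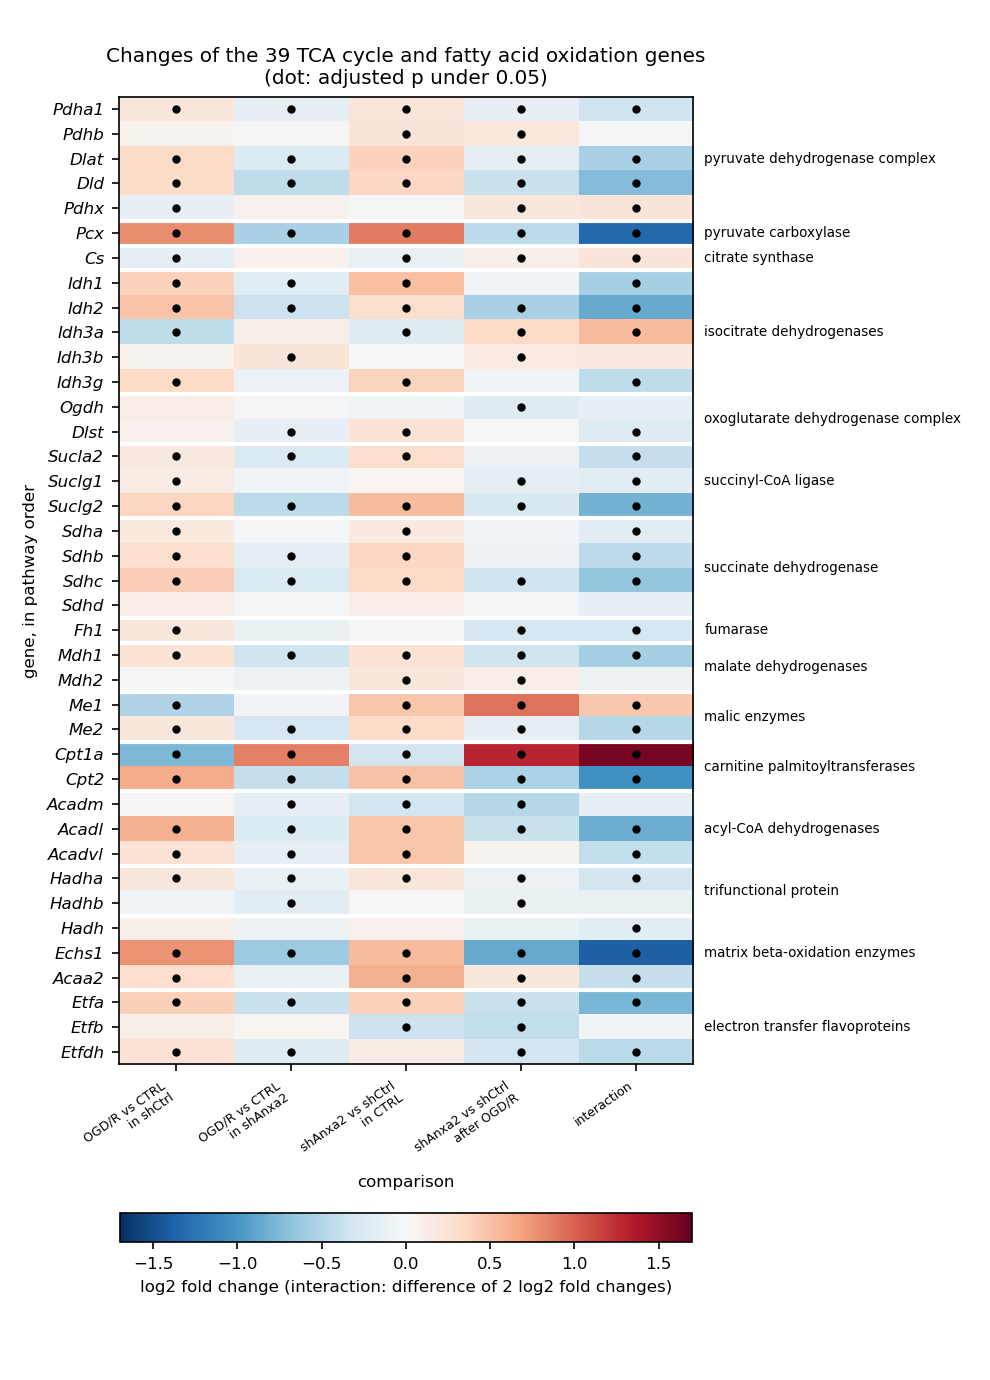
Log2 fold changes of the 39 genes (rows, in pathway order with their group at the right) in the 4 comparisons and the interaction (columns), with a dot where the adjusted p was under 0.05. The columns for OGD/R in shCtrl and for the lines in CTRL are mostly red (24 and 25 genes higher), those for OGD/R in shAnxa2 and for the lines after OGD/R mostly blue (22 and 21 lower), and Cpt1a runs opposite to its neighbours.

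Of the 39 genes, 20 passed the test in both lines after OGD/R and none moved in the same direction. Rising in shCtrl while falling in shAnxa2 was seen for 19, against 22% of all genes tested, and the reverse for 1 (Cpt1a), against 22.4%. Leaving out shAnxa2 OGD/R replicate 3 made the latter count 2. Across the 39 genes the changes in the 2 lines, which share no library, had a Pearson's r of -0.825 and a Spearman's rho of -0.811; over all genes tested they were -0.796 and -0.804. Genes are not independent replicates, so these are descriptions. Opposite calls in the 2 lines were thus frequent among all genes and about evenly split between the 2 orientations, while 19 of the 20 here had the same one. By their profile over the 39 genes, shCtrl CTRL libraries lay nearest to shAnxa2 OGD/R libraries, at a root mean square difference of 0.229 log2 units, and shCtrl OGD/R libraries nearest to shAnxa2 CTRL libraries, at 0.253. The other between-group means were 0.294 to 0.398, and those within groups 0.0876 to 0.117. The treatments rest on the sample titles, and whether they were exchanged within 1 line was not tested.

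**Figure D2:**
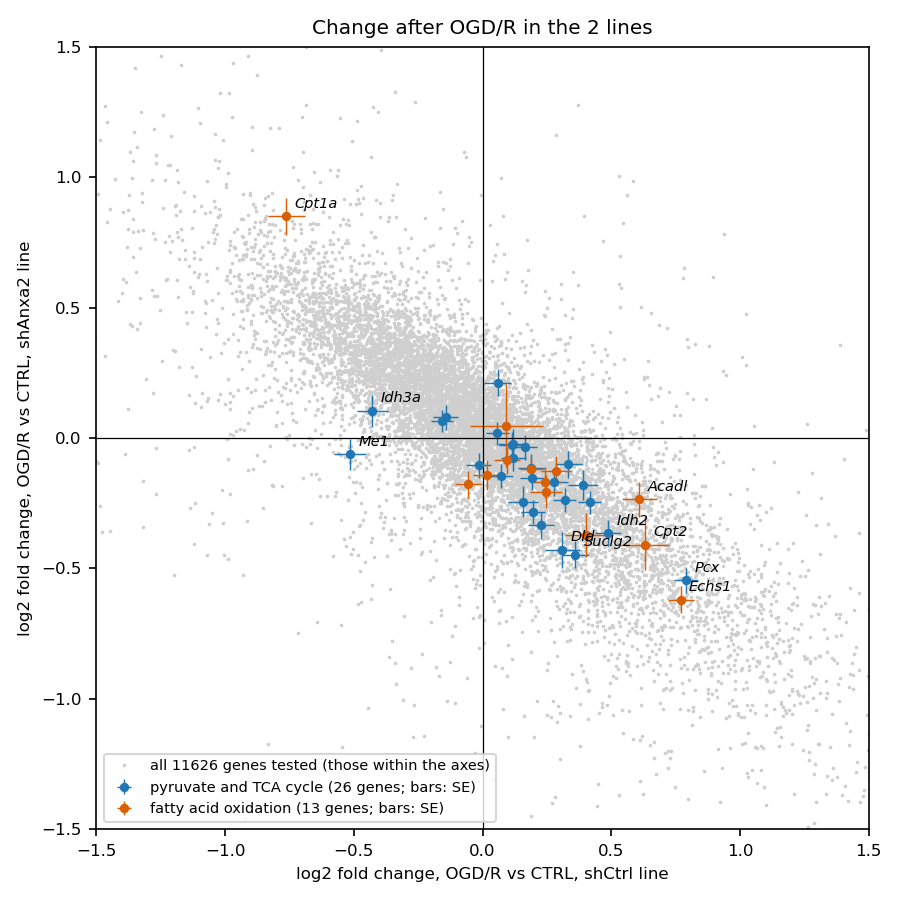
Log2 fold change after OGD/R in the shCtrl line (horizontal axis) and in the shAnxa2 line (vertical axis) for 26 pyruvate and TCA cycle genes and 13 fatty acid oxidation genes, with standard errors as bars. Grey points are the 11279 of 11626 tested genes that lie within the axes. Most of the 39 genes sit at the lower right, with Pcx, Echs1 and Cpt2 farthest out. At the upper left Cpt1a lies farthest out of the 39, and Pdhx, Cs and Idh3a lie nearer the center.

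Pyruvate enters the cycle through the pyruvate dehydrogenase complex, which makes acetyl-CoA, or through pyruvate carboxylase, which makes oxaloacetate. Of the 5 genes of the complex, Pdha1, Dlat and Dld (an E1 subunit, E2 and E3) rose after OGD/R in shCtrl and fell in shAnxa2. Their interactions were -0.34 ± 0.07 (SE, adjusted p = 6.5e-05) for Pdha1, of whose exon bases 16.2% overlap Map3k15 on the other strand, and -0.56 ± 0.06 (SE, adjusted p = 2.76e-08) for Dlat. Pdhb, the other E1 subunit, did not pass the test in either line, at 0.06 ± 0.04 (SE, adjusted p = 0.261) in shCtrl and 0.02 ± 0.04 (SE, adjusted p = 0.744) in shAnxa2, but was higher in shAnxa2 than in shCtrl in CTRL (0.22 ± 0.04 SE, adjusted p = 0.000121) and after OGD/R (0.18 ± 0.04 SE, adjusted p = 0.000708). Dld, which the oxoglutarate dehydrogenase complex also uses, was at 198, 195 and 205 CPM in shCtrl CTRL, 236, 250.4 and 255 in shCtrl OGD/R, 256, 267 and 240.2 in shAnxa2 CTRL, and 207, 201 and 159 in shAnxa2 OGD/R. All shCtrl OGD/R and shAnxa2 CTRL libraries lay above all others. Its change was 0.31 ± 0.07 (SE, adjusted p = 0.000346) in shCtrl and -0.43 ± 0.07 (SE, adjusted p = 1.16e-05) in shAnxa2, with an interaction of -0.74 ± 0.10 (SE, adjusted p = 2.88e-07). Pdhx, the E3-binding subunit, moved the other way, at 130.1, 118 and 129 CPM in shCtrl CTRL, 116, 111 and 115 in shCtrl OGD/R, 121, 121 and 128 in shAnxa2 CTRL, and 136, 130.1 and 125 in shAnxa2 OGD/R. The shCtrl OGD/R libraries lay below all others. Its OGD/R change in shCtrl was -0.14 ± 0.05 (SE, adjusted p = 0.0137), a call lost without shCtrl CTRL replicate 1 (-0.12, adjusted p = 0.0589) or 3 (-0.12, adjusted p = 0.0795) or shCtrl OGD/R replicate 2 (-0.12, adjusted p = 0.0601). In shAnxa2 it was 0.08 ± 0.05 (SE, adjusted p = 0.182), and after OGD/R the shAnxa2 libraries were higher than the shCtrl libraries by 0.19 ± 0.05 (SE, adjusted p = 0.00135).

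Pyruvate carboxylase (Pcx, ENSMUSG00000024892, mm39 chromosome 19, 4560500 to 4671780, plus strand) had the steepest rise of the 39 genes in shCtrl. Pcx was at 90.7, 88.1 and 93.3 CPM in shCtrl CTRL, 162, 149 and 160.3 in shCtrl OGD/R, 172, 166 and 165 in shAnxa2 CTRL, and 114, 113 and 118 in shAnxa2 OGD/R. The 4 groups did not overlap, and the shAnxa2 line without OGD/R held the highest level. OGD/R changed Pcx by 0.79 ± 0.05 (SE, adjusted p = 5.34e-13) in shCtrl, a 1.73-fold level, and by -0.55 ± 0.05 (SE, adjusted p = 9.78e-10) in shAnxa2. Compared with shCtrl, shAnxa2 cells held 1.85 times the level in CTRL (0.89 ± 0.05 SE, adjusted p = 9.64e-14) and 0.731 times after OGD/R (-0.45 ± 0.05 SE, adjusted p = 6.55e-09). The interaction was -1.34 ± 0.07 (SE, adjusted p = 8.98e-15).

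Citrate synthase, which condenses acetyl-CoA with oxaloacetate, changed little. Cs was at 660.2, 672 and 667 CPM in shCtrl CTRL, 603, 589.8 and 599 in shCtrl OGD/R, 614, 592 and 625 in shAnxa2 CTRL, and 629, 639 and 651 in shAnxa2 OGD/R. The shCtrl CTRL libraries were highest and the shAnxa2 OGD/R libraries next, and the remaining 2 groups overlapped. Its OGD/R change in shCtrl was -0.16 ± 0.04 (SE, adjusted p = 0.00214) and in shAnxa2 0.07 ± 0.04 (SE, adjusted p = 0.188). The lower level in shAnxa2 CTRL, -0.13 ± 0.04 (SE, adjusted p = 0.0126), was no longer called without shAnxa2 CTRL replicate 2 (-0.10, adjusted p = 0.0665). The higher level in shAnxa2 after OGD/R, 0.10 ± 0.04 (SE, adjusted p = 0.0417), was lost without any 1 of 7 libraries (shCtrl CTRL replicates 2 and 3, all shCtrl OGD/R replicates, and shAnxa2 OGD/R replicates 2 and 3), at 0.08 to 0.10.

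The isocitrate dehydrogenases did not move as 1 group. Idh1 (cytosolic) and Idh2 (mitochondrial) use NADP, and Idh3a, Idh3b and Idh3g form the NAD-dependent enzyme of the cycle. Idh2 was at 317, 317 and 309 CPM in shCtrl CTRL, 419, 443 and 461 in shCtrl OGD/R, 409.9, 370.2 and 383 in shAnxa2 CTRL, and 307, 293 and 303 in shAnxa2 OGD/R. Its shCtrl OGD/R libraries were the highest and its shAnxa2 OGD/R libraries the lowest, without overlap of any groups. OGD/R changed Idh2 by 0.49 ± 0.05 (SE, adjusted p = 6.92e-09) in shCtrl and by -0.37 ± 0.05 (SE, adjusted p = 1.26e-06) in shAnxa2. Idh1 was at 102, 92.5 and 98.3 CPM in shCtrl CTRL, 138, 129 and 117 in shCtrl OGD/R, 134, 140.2 and 144 in shAnxa2 CTRL, and 129, 116 and 124 in shAnxa2 OGD/R. It was lowest in shCtrl CTRL, rose there after OGD/R by 0.39 ± 0.06 (SE, adjusted p = 2.08e-06) and was higher in shAnxa2 CTRL than in shCtrl CTRL by 0.51 ± 0.06 (SE, adjusted p = 4.6e-08). The fall of Idh1 in shAnxa2 after OGD/R, -0.18 ± 0.06 (SE, adjusted p = 0.0097), was not called without shAnxa2 OGD/R replicate 2 (-0.15, adjusted p = 0.0589).

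The 3 subunits of the NAD-dependent enzyme differed in direction. Idh3a, which carries the catalytic site, was at 116, 129 and 122 CPM in shCtrl CTRL, 86.6, 87.7 and 99 in shCtrl OGD/R, 105, 111 and 102 in shAnxa2 CTRL, and 118, 120.3 and 103 in shAnxa2 OGD/R. All shCtrl OGD/R libraries were below all others. It fell after OGD/R in shCtrl by 0.43 ± 0.06 (SE, adjusted p = 1.72e-06) on the log2 scale and changed by 0.10 ± 0.06 (SE, adjusted p = 0.158) in shAnxa2, with a positive interaction of 0.53 ± 0.09 (SE, adjusted p = 8.21e-06). Idh3g, a regulatory subunit, rose by 0.33 ± 0.05 (SE, adjusted p = 5.11e-06) in shCtrl and had a negative interaction of -0.43 ± 0.07 (SE, adjusted p = 1.24e-05). Idh3b was at 210.0, 201 and 217 CPM in shCtrl CTRL, 224, 219 and 211 in shCtrl OGD/R, 200.4, 202 and 221 in shAnxa2 CTRL, and 248, 227 and 248 in shAnxa2 OGD/R. Only in shAnxa2 OGD/R did it exceed all libraries of the other groups, with 0.21 ± 0.05 (SE, adjusted p = 0.00122) against CTRL, and its interaction, 0.15 ± 0.07 (SE, adjusted p = 0.0641), did not pass the test. Its higher level in shAnxa2 than in shCtrl after OGD/R, 0.14 ± 0.05 (SE, adjusted p = 0.0166), was lost without shCtrl OGD/R replicate 3 (0.12, adjusted p = 0.0734), shAnxa2 OGD/R replicate 1 (0.12, adjusted p = 0.0601) or 3 (0.12, adjusted p = 0.0683).

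Of oxoglutarate dehydrogenase, the next step, the members other than the shared Dld changed little after OGD/R in shCtrl. Neither Ogdh, the E1 subunit (0.11 ± 0.05 SE, adjusted p = 0.0521) nor Dlst (0.07 ± 0.05 SE, adjusted p = 0.162) passed the test in shCtrl after OGD/R. Ogdh was lower in shAnxa2 than in shCtrl after OGD/R (-0.21 ± 0.05 SE, adjusted p = 0.000712). Dlst, the E2 subunit, fell in shAnxa2 by 0.14 ± 0.05 (SE, adjusted p = 0.00917) on the log2 scale, a call lost without shAnxa2 CTRL replicate 1 (-0.12, adjusted p = 0.0518). Succinyl-CoA ligase makes a nucleoside triphosphate from succinyl-CoA, and its 3 genes had negative interactions. Suclg2, the GTP-forming beta subunit, moved most and was at 87.7, 91.2 and 94.6 CPM in shCtrl CTRL, 112, 118 and 121 in shCtrl OGD/R, 140.0, 132 and 124 in shAnxa2 CTRL, and 98, 98.9 and 93.4 in shAnxa2 OGD/R. The shAnxa2 CTRL libraries were the highest and the shCtrl OGD/R libraries next, while shCtrl CTRL and shAnxa2 OGD/R overlapped. OGD/R changed Suclg2 by 0.36 ± 0.05 (SE, adjusted p = 1.57e-06) in shCtrl and -0.45 ± 0.05 (SE, adjusted p = 1.24e-07) in shAnxa2, and the interaction was -0.81 ± 0.07 (SE, adjusted p = 6.06e-10). Sucla2, the ATP-forming beta subunit, had an interaction of -0.40 ± 0.08 (SE, adjusted p = 0.000164), and Suclg1, the shared alpha subunit, of -0.20 ± 0.07 (SE, adjusted p = 0.0156). Their rises in shCtrl, 0.16 ± 0.06 (SE, adjusted p = 0.0228) and 0.12 ± 0.05 (SE, adjusted p = 0.0364), were each lost without shCtrl CTRL replicate 2 (0.14, adjusted p = 0.0721 and 0.10, adjusted p = 0.116) or shCtrl OGD/R replicate 3 (0.16, adjusted p = 0.0505 and 0.12, adjusted p = 0.0678), that of Suclg1 also without any 1 of 3 further libraries (shCtrl CTRL replicate 3 and shCtrl OGD/R replicates 1 and 2, at 0.12 to 0.13).

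Succinate dehydrogenase belongs both to the cycle and to the respiratory chain. Of its 4 genes, Sdha, Sdhb and Sdhc rose after OGD/R in shCtrl, and Sdhb and Sdhc fell in shAnxa2, Sdhb no longer without shAnxa2 CTRL replicate 3 (-0.13, adjusted p = 0.0522). Sdhc, a membrane anchor, ranged from 214 to 222 CPM in shCtrl CTRL and 293 to 294 in shCtrl OGD/R to 269 to 283 in shAnxa2 CTRL and 228 to 239 in shAnxa2 OGD/R, without overlap. Its changes were 0.42 ± 0.04 (SE, adjusted p = 1.68e-08) in shCtrl and -0.25 ± 0.04 (SE, adjusted p = 5.6e-05) in shAnxa2. The other anchor, Sdhd, passed the test in no comparison, with an interaction of -0.14 ± 0.08 (SE, adjusted p = 0.126). Fumarase (Fh1) rose in shCtrl by 0.19 ± 0.05 (SE, adjusted p = 0.00239) and was lower in shAnxa2 than in shCtrl after OGD/R, with a difference of -0.29 ± 0.05 (SE, adjusted p = 2.73e-05). Cytosolic Mdh1 had an interaction of -0.56 ± 0.07 (SE, adjusted p = 2.69e-07) and mitochondrial Mdh2 of -0.09 ± 0.07 (SE, adjusted p = 0.247). Mdh2 was higher in shAnxa2 than in shCtrl in CTRL, by 0.20 ± 0.05 (SE, adjusted p = 0.00108). After OGD/R the difference of 0.11 ± 0.05 (SE, adjusted p = 0.0497) was lost without any 1 of 8 libraries, at 0.07 to 0.11, all but shCtrl CTRL replicate 1, shCtrl OGD/R replicate 3, shAnxa2 CTRL replicate 3 and shAnxa2 OGD/R replicate 1.

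Malic enzymes turn malate into pyruvate. Me1, the cytosolic NADP-dependent form, was at 42.1, 45.2 and 45.6 CPM in shCtrl CTRL, 33.2, 30.3 and 29.4 in shCtrl OGD/R, 65.4, 59.1 and 60.3 in shAnxa2 CTRL, and 59.8, 59.3 and 58 in shAnxa2 OGD/R. Every shAnxa2 library lay above every shCtrl library, and the shCtrl OGD/R libraries were the lowest. OGD/R lowered Me1 in shCtrl to 0.70 times its level (-0.52 ± 0.06 SE, adjusted p = 1.38e-07), while in shAnxa2 the change was -0.06 ± 0.06 (SE, adjusted p = 0.397). The line difference was 1.39-fold in CTRL (0.47 ± 0.06 SE, adjusted p = 3.34e-07) and 1.9-fold after OGD/R (0.93 ± 0.06 SE, adjusted p = 3.43e-12). Mitochondrial Me2 rose in shCtrl by 0.20 ± 0.05 (SE, adjusted p = 0.000753) and fell in shAnxa2 by 0.28 ± 0.05 (SE, adjusted p = 1.75e-05) on the log2 scale. Its lower level in shAnxa2 after OGD/R, -0.14 ± 0.05 (SE, adjusted p = 0.0106), was not called without shCtrl OGD/R replicate 2 (-0.10, adjusted p = 0.0813).

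**Figure D3:**
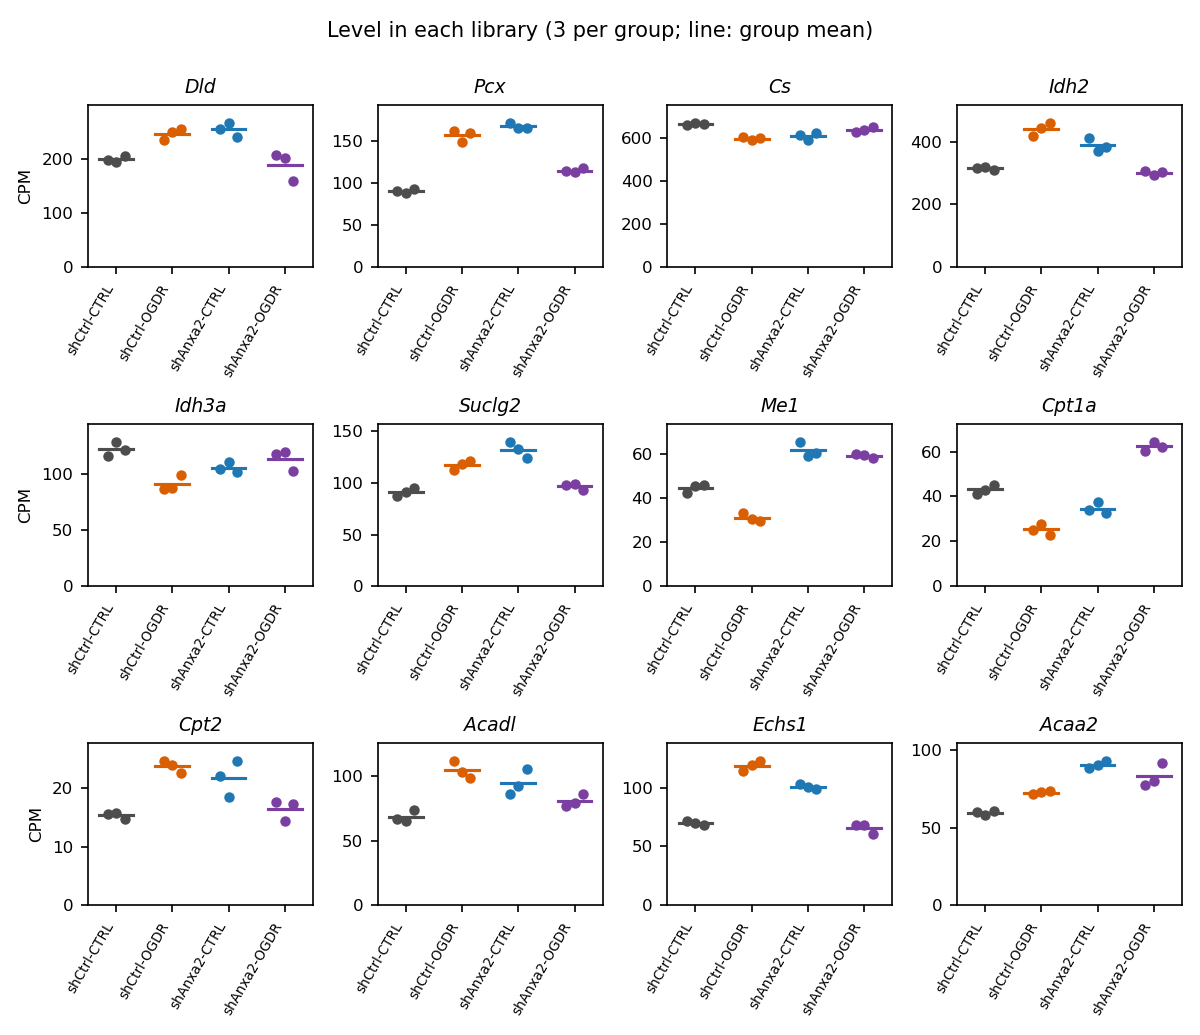
CPM (vertical axis, from 0) of 12 of the 39 genes in each of the 12 libraries, by group, with the group mean as a line. Pcx, Idh2, Suclg2, Cpt2, Acadl and Echs1 are high in shCtrl OGD/R and shAnxa2 CTRL, Cpt1a is highest in shAnxa2 OGD/R (60.3 to 64.4 CPM) and Cs stays between 590 and 672 CPM.

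Fatty acids cross into mitochondria through 2 carnitine palmitoyltransferases, and these moved in opposite directions. Cpt1a (ENSMUSG00000024900, mm39 chromosome 19, 3372334 to 3435733, plus strand) makes acylcarnitine at the outer membrane and is the step inhibited by malonyl-CoA. Cpt1a was at 41, 43 and 45.2 CPM in shCtrl CTRL, 25.2, 27.9 and 22.9 in shCtrl OGD/R, 33.9, 37.3 and 32.5 in shAnxa2 CTRL, and 60.3, 64.4 and 62.2 in shAnxa2 OGD/R. The 4 groups did not overlap, with shAnxa2 OGD/R highest and shCtrl OGD/R lowest. After OGD/R it fell in shCtrl to 0.589 times its level (-0.76 ± 0.07 SE, adjusted p = 2.03e-09) and rose 1.8-fold in shAnxa2 (0.85 ± 0.07 SE, adjusted p = 5.42e-10). Between the lines it was lower in shAnxa2 in CTRL (-0.32 ± 0.07 SE, adjusted p = 0.000441) and 2.45-fold higher after OGD/R (1.29 ± 0.07 SE, adjusted p = 9.35e-14). The interaction of 1.61 ± 0.10 (SE, adjusted p = 6.5e-13) was the most positive of the 39.

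Cpt2 (ENSMUSG00000028607, mm39 chromosome 4, 107761178 to 107780807, minus strand) reverses the reaction at the inner membrane. Cpt2 was at 15.6, 15.8 and 14.7 CPM in shCtrl CTRL, 24.6, 23.9 and 22.6 in shCtrl OGD/R, 22, 18.5 and 24.5 in shAnxa2 CTRL, and 17.6, 14.3 and 17.3 in shAnxa2 OGD/R. The shCtrl OGD/R libraries and the shAnxa2 CTRL libraries overlapped and lay above all others. OGD/R raised Cpt2 1.55-fold in shCtrl (0.63 ± 0.10 SE, adjusted p = 3.56e-06) and lowered it in shAnxa2 (-0.41 ± 0.10 SE, adjusted p = 0.00107). In CTRL it was higher in shAnxa2 (0.50 ± 0.10 SE, adjusted p = 9.8e-05) and after OGD/R lower (-0.54 ± 0.10 SE, adjusted p = 3.0e-05). Cpt1b, the muscle form of the outer enzyme, was at 0.119 to 0.794 CPM in the 12 libraries and passed the test in no comparison, with an OGD/R change of -0.37 ± 0.51 (SE, adjusted p = 0.548) in shCtrl.

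The acyl-CoA dehydrogenases differ in the chain length they take. Acadl, the long-chain enzyme, was at 66.8, 65 and 73.4 CPM in shCtrl CTRL, 112, 103 and 98.2 in shCtrl OGD/R, 86.1, 92 and 106 in shAnxa2 CTRL, and 76.5, 79.1 and 85.8 in shAnxa2 OGD/R. All shCtrl CTRL libraries lay below all others. OGD/R raised it 1.52-fold in shCtrl (0.61 ± 0.07 SE, adjusted p = 3.23e-08). In shAnxa2 it changed by -0.24 ± 0.07 (SE, adjusted p = 0.00532), a call that was lost without shAnxa2 CTRL replicate 3 (-0.15, adjusted p = 0.070), and there 1 treated and 1 untreated library nearly met. Acadm, the medium-chain enzyme, separated the lines rather than the treatments, at 103, 98.6 and 102 CPM in shCtrl CTRL, 97.8, 104 and 106 in shCtrl OGD/R, 76, 76.2 and 89.1 in shAnxa2 CTRL, and 72.2, 73 and 73.9 in shAnxa2 OGD/R. The 6 shAnxa2 libraries were all lower than the 6 shCtrl libraries, with differences of -0.33 ± 0.06 (SE, adjusted p = 2.21e-05) in CTRL and -0.49 ± 0.06 (SE, adjusted p = 4.85e-08) after OGD/R. The OGD/R change of Acadm in shAnxa2, -0.14 ± 0.06 (SE, adjusted p = 0.0413), was lost without shAnxa2 CTRL replicate 3 (-0.06, adjusted p = 0.38), shCtrl CTRL replicate 1 (-0.14, adjusted p = 0.0508), or shAnxa2 OGD/R replicate 1 (-0.13, adjusted p = 0.0992) or 2 (-0.15, adjusted p = 0.070). Acadvl, the very-long-chain enzyme, was higher in shAnxa2 than in shCtrl in CTRL by 0.48 ± 0.06 (SE, adjusted p = 2.54e-07) and had an interaction of -0.41 ± 0.08 (SE, adjusted p = 0.000115). Of its exon bases, 42.9% overlap exons of Dvl2 on the other strand, and the library kit does not mark strand, so reads of the 2 genes cannot be told apart there. Its OGD/R change in shAnxa2, -0.17 ± 0.06 (SE, adjusted p = 0.0176), was lost without shAnxa2 CTRL replicate 1 (-0.16, adjusted p = 0.0558) or 2 (-0.14, adjusted p = 0.0855), or shAnxa2 OGD/R replicate 1 (-0.15, adjusted p = 0.0736).

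The later steps of each round are carried out by the trifunctional protein (Hadha and Hadhb) on long chains and by Echs1, Hadh and Acaa2 on shorter ones. Echs1 (ENSMUSG00000025465, mm39 chromosome 7, 139685623 to 139696389, minus strand), the short-chain enoyl-CoA hydratase, was at 71.5, 69.6 and 67.8 CPM in shCtrl CTRL, 115, 119 and 123 in shCtrl OGD/R, 103, 101 and 98.8 in shAnxa2 CTRL, and 68.3, 67.9 and 60.7 in shAnxa2 OGD/R. The shCtrl OGD/R libraries were highest and the shAnxa2 CTRL libraries next, and the remaining 2 groups overlapped. OGD/R raised Echs1 1.71-fold in shCtrl (0.77 ± 0.05 SE, adjusted p = 4.61e-12) and lowered it to 0.651 times its level in shAnxa2 (-0.62 ± 0.05 SE, adjusted p = 8.96e-10). It was 1.45-fold higher in shAnxa2 in CTRL (0.54 ± 0.05 SE, adjusted p = 4.51e-09) and at 0.553 times the shCtrl level after OGD/R (-0.85 ± 0.05 SE, adjusted p = 5.7e-13). The interaction of -1.39 ± 0.07 (SE, adjusted p = 3.42e-14) was the most negative of the 39.

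Acaa2, a thiolase that ends rounds on shorter chains, was at 59.9, 58 and 60.5 CPM in shCtrl CTRL, 71.3, 72.6 and 73.6 in shCtrl OGD/R, 88.5, 90.2 and 93 in shAnxa2 CTRL, and 77.4, 80.1 and 91.8 in shAnxa2 OGD/R. Every shAnxa2 library lay above every shCtrl library. It rose after OGD/R in shCtrl by 0.28 ± 0.06 (SE, adjusted p = 0.000125) and was 1.52-fold higher in shAnxa2 in CTRL (0.61 ± 0.06 SE, adjusted p = 2.4e-09). The difference of the lines after OGD/R, 0.20 ± 0.06 (SE, adjusted p = 0.00363), was lost without shAnxa2 OGD/R replicate 3 (0.11, adjusted p = 0.0611). Hadh, the short-chain hydroxyacyl-CoA dehydrogenase, passed the test in none of the 4 pairwise comparisons, and its interaction of -0.18 ± 0.07 (SE, adjusted p = 0.0297) was lost without any 1 of 5 libraries (shCtrl CTRL replicate 1, shCtrl OGD/R replicate 3, shAnxa2 CTRL replicates 1 and 2 and shAnxa2 OGD/R replicate 1), at -0.17 to -0.14.

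The trifunctional protein's 2 subunit genes lie head to head on chromosome 5, with starts 273 bases apart (GRCm38), and changed by different amounts. Hadha rose in shCtrl after OGD/R by 0.19 ± 0.04 (SE, adjusted p = 0.000687), and Hadhb changed by -0.06 ± 0.05 (SE, adjusted p = 0.349). In CTRL the line difference was 0.21 ± 0.04 (SE, adjusted p = 0.00032) for Hadha and 0.0031 ± 0.05 (SE, adjusted p = 0.965) for Hadhb. Both fell in shAnxa2 after OGD/R, by 0.12 ± 0.04 (SE, adjusted p = 0.027) and 0.18 ± 0.05 (SE, adjusted p = 0.0059) on the log2 scale. For Hadha that call was lost without shAnxa2 CTRL replicate 2 (-0.11, adjusted p = 0.0744) or 3 (-0.12, adjusted p = 0.0558) or shAnxa2 OGD/R replicate 2 (-0.12, adjusted p = 0.0519). Their lower levels in shAnxa2 after OGD/R, -0.10 ± 0.04 (SE, adjusted p = 0.0482) and -0.12 ± 0.05 (SE, adjusted p = 0.0486), stood at the threshold. For Hadha the call was lost without any 1 of 9 libraries, at -0.11 to -0.10 (all but shCtrl CTRL replicates 2 and 3 and shAnxa2 CTRL replicate 3). For Hadhb it was lost without any 1 of 6, at -0.13 to -0.09 (shCtrl CTRL replicate 1, shCtrl OGD/R replicates 2 and 3, shAnxa2 CTRL replicate 1, and shAnxa2 OGD/R replicates 1 and 3).

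Electron transfer flavoprotein (Etfa and Etfb) collects the electrons of the acyl-CoA dehydrogenases, and Etfdh passes them to ubiquinone. Etfa rose in shCtrl by 0.40 ± 0.08 (SE, adjusted p = 0.00015) and fell in shAnxa2 by 0.37 ± 0.08 (SE, adjusted p = 0.000588) on the log2 scale, and Etfdh did likewise, with interactions of -0.78 ± 0.12 (SE, adjusted p = 2.56e-06) and -0.45 ± 0.09 (SE, adjusted p = 7.36e-05). Their partner Etfb was at 5.72, 4.76 and 5.59 CPM in shCtrl CTRL, 6.14, 5.96 and 4.92 in shCtrl OGD/R, 3.62, 4.96 and 3.89 in shAnxa2 CTRL, and 3.78, 4.65 and 4.37 in shAnxa2 OGD/R. Its 2 treatments overlapped in each line, and OGD/R changed it by 0.09 ± 0.14 (SE, adjusted p = 0.585) in shCtrl and 0.05 ± 0.16 (SE, adjusted p = 0.824) in shAnxa2. It was lower in shAnxa2 both in CTRL (-0.37 ± 0.15 SE, adjusted p = 0.040) and after OGD/R (-0.41 ± 0.15 SE, adjusted p = 0.0187). The first of these calls was lost without any 1 of 4 libraries (shCtrl CTRL replicates 1 and 3 and shAnxa2 CTRL replicates 1 and 3, at -0.33 to -0.28), and the second without any 1 of 3 (shCtrl OGD/R replicates 1 and 2 and shAnxa2 OGD/R replicate 1, at -0.38 to -0.34). Etfb is listed at the lowest level of the 39 genes, and 53% of its exon bases also belong to Gm45233 on the same strand, between which the counting could have split reads.

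Genes around these 39 were counted from 2 further lists, to be read against all genes tested. Of those, 32.4% rose and 31% fell after OGD/R in shCtrl and 28.2% rose and 26.8% fell in shAnxa2, while 29.5% were higher and 29.7% lower in shAnxa2 in CTRL, and 33.8% higher and 34.2% lower after OGD/R. Of 33 other pyruvate and TCA cycle genes 30 were tested, and after OGD/R 12 rose and 8 fell in shCtrl, and 8 rose and 12 fell in shAnxa2, with medians of 0.08 and -0.08. Between the lines 13 were higher and 3 lower in shAnxa2 in CTRL, and 11 higher and 9 lower after OGD/R. Of 47 other fatty acid oxidation genes 39 were tested, and after OGD/R 20 rose and 7 fell in shCtrl, and 6 rose and 16 fell in shAnxa2, with medians of 0.19 and -0.01. Between the lines 19 were higher and 9 lower in shAnxa2 in CTRL, and 7 higher and 22 lower after OGD/R. Among the 13 tested further genes of mitochondrial beta-oxidation, 11 rose and none fell in shCtrl, and 8 fell and none rose in shAnxa2. The 13 tested genes of fatty acid uptake, activation and transport were mixed, with 3 up and 3 down in shCtrl.

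The tested pyruvate dehydrogenase kinases, Pdk1, Pdk2 and Pdk3, which switch the complex off, moved in the same direction as most of its subunits. Pdk1 was at 148, 144 and 157 CPM in shCtrl CTRL, 237, 257 and 256 in shCtrl OGD/R, 218, 237 and 225 in shAnxa2 CTRL, and 140.1, 154 and 157 in shAnxa2 OGD/R. Its shCtrl OGD/R libraries were the highest, by a narrow margin over shAnxa2 CTRL, and its shCtrl CTRL and shAnxa2 OGD/R libraries overlapped. OGD/R changed Pdk1 by 0.74 ± 0.05 (SE, adjusted p = 1.47e-11) in shCtrl and -0.59 ± 0.05 (SE, adjusted p = 2.09e-09) in shAnxa2. Pdk2 was low, at 0.292, 0.77 and 0.882 CPM in shCtrl CTRL, 4.19, 3.89 and 4.2 in shCtrl OGD/R, 1.81, 2.36 and 2.03 in shAnxa2 CTRL, and 0.714, 0.914 and 0.582 in shAnxa2 OGD/R. It rose in shCtrl by 2.62 ± 0.26 (SE, adjusted p = 3.33e-09) and fell in shAnxa2 by 1.46 ± 0.29 (SE, adjusted p = 0.00015) on the log2 scale. Pdk3 rose in shCtrl by 0.34 ± 0.06 (SE, adjusted p = 2.89e-05) and fell in shAnxa2 by 0.49 ± 0.06 (SE, adjusted p = 5.15e-07). Of the phosphatase genes, Pdp2 went the other way, at -0.23 ± 0.05 (SE, adjusted p = 0.000243) in shCtrl and 0.12 ± 0.05 (SE, adjusted p = 0.0402) in shAnxa2. Pdpr moved as the kinases did (0.56 in shCtrl and -0.25 in shAnxa2). The OGD/R change of Pdp1 passed the test only in shAnxa2 (-0.42). Pck2, the mitochondrial phosphoenolpyruvate carboxykinase, which drains oxaloacetate, was at 76.5, 74.7 and 74.3 CPM in shCtrl CTRL, 264, 226 and 208 in shCtrl OGD/R, 147, 145 and 149 in shAnxa2 CTRL, and 77.6, 70.1 and 82.3 in shAnxa2 OGD/R. It was 3.1-fold higher after OGD/R in shCtrl (1.63 ± 0.07 SE, adjusted p = 7.9e-16) and at 0.521 times its level in shAnxa2 (-0.94 ± 0.07 SE, adjusted p = 5.1e-11).

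The most extreme fold change in the 2 further lists was that of Acod1, which makes itaconate from the cycle intermediate cis-aconitate and is induced in activated macrophages. Acod1 was at 62.4, 60.7 and 53.4 CPM in shCtrl CTRL, 387, 445 and 418 in shCtrl OGD/R, 1222, 1255 and 1243 in shAnxa2 CTRL, and 524, 447 and 390.1 in shAnxa2 OGD/R. The shAnxa2 CTRL libraries lay far above all others and the shCtrl CTRL libraries far below, while the 2 OGD/R groups overlapped. It rose 7.09-fold after OGD/R in shCtrl (2.82 ± 0.08 SE, adjusted p = 3.45e-18) and fell in shAnxa2 (-1.45 ± 0.08 SE, adjusted p = 2.66e-13). It was 21.1-fold higher in shAnxa2 than in shCtrl in CTRL (4.40 ± 0.09 SE, adjusted p = 7.9e-22), and the lines differed by 0.12 ± 0.07 (SE, adjusted p = 0.145) after OGD/R.

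Malonyl-CoA holds Cpt1a back, and Acacb and Mlycd, which make and remove it, moved opposite to each other. Mlycd, malonyl-CoA decarboxylase, was at 14.1, 13.6 and 14.5 CPM in shCtrl CTRL, 42.4, 40.5 and 38.2 in shCtrl OGD/R, 40.0, 38.5 and 40.0 in shAnxa2 CTRL, and 19.9, 21.7 and 25.3 in shAnxa2 OGD/R. It was lowest in shCtrl CTRL and rose there 2.87-fold after OGD/R (1.52 ± 0.08 SE, adjusted p = 4.95e-14), and it fell in shAnxa2 (-0.83 ± 0.08 SE, adjusted p = 3.8e-09). Acacb, the mitochondrial acetyl-CoA carboxylase, was near 1 CPM, at 1.55, 1.94 and 1.76 CPM in shCtrl CTRL, 0.626, 0.993 and 0.666 in shCtrl OGD/R, 0.929, 0.818 and 1.19 in shAnxa2 CTRL, and 1.84, 2.38 and 1.6 in shAnxa2 OGD/R. It fell in shCtrl (-1.18 ± 0.27 SE, adjusted p = 0.000563) and rose in shAnxa2 (0.98 ± 0.27 SE, adjusted p = 0.00313), with the same signs as Cpt1a.

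Acox3, a peroxisomal acyl-CoA oxidase, was at 29.3, 25.5 and 26.4 CPM in shCtrl CTRL, 75.4, 73.2 and 69.4 in shCtrl OGD/R, 48.1, 52.6 and 49.4 in shAnxa2 CTRL, and 25.4, 27.7 and 27 in shAnxa2 OGD/R. It rose after OGD/R in shCtrl by 1.43 ± 0.06 (SE, adjusted p = 4.36e-15) and fell in shAnxa2 by 0.90 ± 0.07 (SE, adjusted p = 8.09e-11) on the log2 scale. Acad10, a further acyl-CoA dehydrogenase, was at 10.4, 9.64 and 9.89 CPM in shCtrl CTRL, 23.4, 23.4 and 22.1 in shCtrl OGD/R, 18.1, 18.8 and 21.5 in shAnxa2 CTRL, and 11.7, 11.3 and 11.4 in shAnxa2 OGD/R. Its changes were 1.20 ± 0.09 (SE, adjusted p = 1.5e-11) in shCtrl and -0.77 ± 0.09 (SE, adjusted p = 1.06e-07) in shAnxa2. For both genes shCtrl OGD/R was highest and shAnxa2 CTRL next, with the remaining 2 groups at the bottom.

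**Figure D4:**
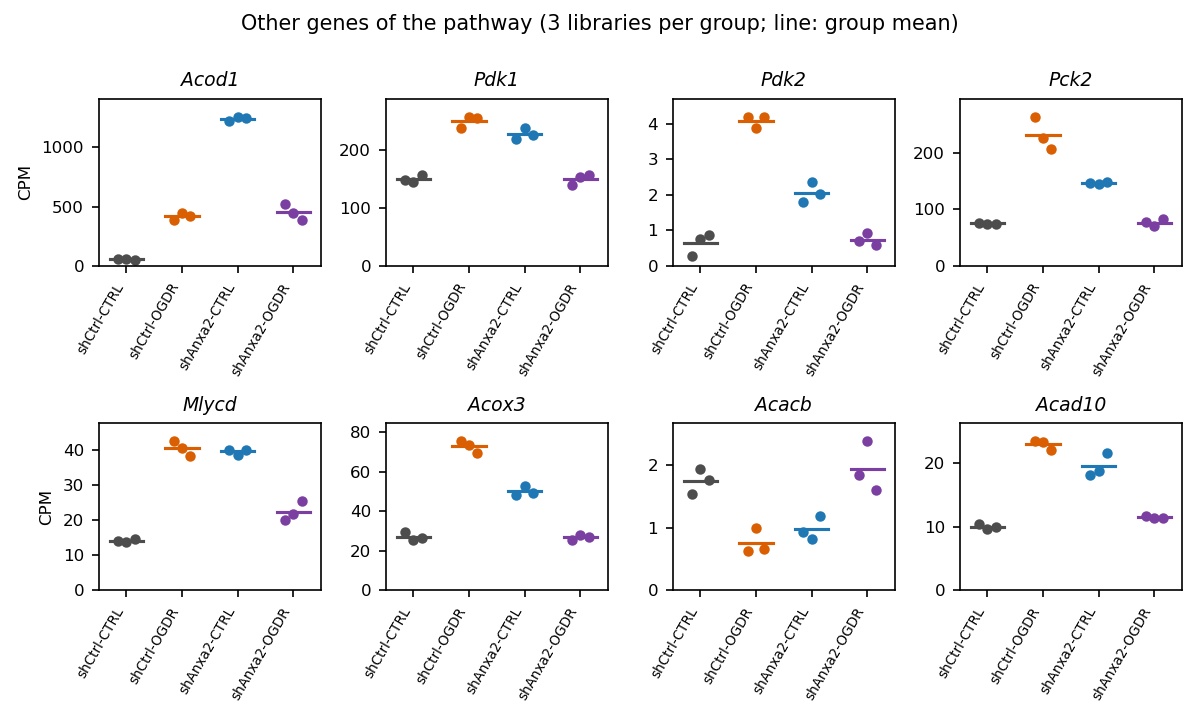
CPM (vertical axis, from 0) of 8 further genes of the pathways in each of the 12 libraries, by group, with the group mean as a line. Acod1 is highest in shAnxa2 CTRL, Pdk1, Pdk2, Pck2, Acox3 and Acad10 are highest in shCtrl OGD/R, and Acacb is lowest there.

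Promoters are shown for the genes that moved farthest, Pcx, Cpt2 and Echs1 in one direction and Cpt1a in the other, to set their sequences side by side. Windows from 250 bases before to 50 after each gene's start came from RefSeq (GRCm38.p6), where 35 of the 39 genes matched, with 43 windows. Idh3a, Me2, Acaa2 and Sdhc were not matched. Capitals mark matches, on either strand, to the CCAAT box (CCAAT), the GC box (GGGCGG), an ETS core (CCGGAAG), the NRF-1 palindrome (GCGCA and GCGC with any 1 base between them), an ERR element (AAGGTCA), the core shared by hypoxia response elements and many E-boxes (ACGTG), the cAMP response element (TGACGTCA) and a C/EBP-ATF composite element (TGATGCAA). The Pcx window, the upstream of 2, is chr19:4510222-4510521 on the plus strand, that of Cpt2 chr4:107923540-107923839 and that of Echs1 chr7:140116372-140116671, both on the minus strand, and that of Cpt1a chr19:3323051-3323350 on the plus strand.
Pcx: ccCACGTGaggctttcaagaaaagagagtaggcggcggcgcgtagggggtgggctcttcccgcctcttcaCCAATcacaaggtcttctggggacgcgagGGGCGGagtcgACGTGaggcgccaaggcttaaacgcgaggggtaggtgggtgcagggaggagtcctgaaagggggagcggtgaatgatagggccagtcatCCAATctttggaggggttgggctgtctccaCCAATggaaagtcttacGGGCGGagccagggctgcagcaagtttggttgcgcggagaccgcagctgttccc
Cpt2: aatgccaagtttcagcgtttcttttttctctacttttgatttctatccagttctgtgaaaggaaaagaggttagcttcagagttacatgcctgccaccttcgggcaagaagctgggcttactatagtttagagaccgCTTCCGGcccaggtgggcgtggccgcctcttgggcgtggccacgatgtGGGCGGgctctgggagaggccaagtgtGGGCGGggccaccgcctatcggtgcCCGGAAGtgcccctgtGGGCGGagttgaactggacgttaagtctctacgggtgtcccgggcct
Echs1: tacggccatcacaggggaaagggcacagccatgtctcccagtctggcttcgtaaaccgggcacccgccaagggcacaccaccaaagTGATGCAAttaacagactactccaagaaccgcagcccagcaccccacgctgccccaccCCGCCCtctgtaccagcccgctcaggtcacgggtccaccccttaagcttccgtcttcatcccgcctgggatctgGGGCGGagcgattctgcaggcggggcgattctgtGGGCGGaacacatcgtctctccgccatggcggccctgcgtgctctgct
Cpt1a: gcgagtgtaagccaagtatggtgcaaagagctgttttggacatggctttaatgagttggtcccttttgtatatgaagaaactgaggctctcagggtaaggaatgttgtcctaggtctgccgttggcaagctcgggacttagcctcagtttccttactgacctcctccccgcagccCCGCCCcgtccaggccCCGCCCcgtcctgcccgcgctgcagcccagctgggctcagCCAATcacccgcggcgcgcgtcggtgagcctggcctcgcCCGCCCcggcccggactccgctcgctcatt

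In this set of windows the upstream Pcx window held 3 CCAAT boxes, 2 GC boxes and the ACGTG core at 2 places, of which 1 reads as CACGTG and so matches on both strands. The other Pcx window, not shown, held 1 CCAAT box and no further match. Which start the cells use was not tested. Cpt2 held 2 ETS cores and 3 GC boxes, Echs1 3 GC boxes and the composite element, and Cpt1a 3 GC boxes and 1 CCAAT box. GC boxes were in 69.8% of the 43 windows and 35.7% of all 32851 windows of that length. For the CCAAT box the shares were 60.5% and 37.4%, for the ACGTG core 30.2% and 19.6%, for the ETS core 14% and 8.86%, and for the NRF-1 palindrome 14% and 4.6%. The ERR element was in 6.98% and 4.72%, the cAMP response element in 9.3% and 1.79%, and the composite element in 2.33% and 0.895%. Several genes have more than 1 window, some of which overlap. GC boxes occur in the window of Cpt1a as in those of Cpt2 and Echs1, although their changes had opposite signs. These matches are letters in a window and not shown to be sites.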

How the data were processed

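The authors deposited 1 table of raw counts of reads per gene for 21834 protein-coding genes in 12 BV2 libraries, without normalization. The submitters' processing notes name HISAT2 2.0.4 and mm39, and the counting tool for these libraries is not given in the sources used here. A further 12 per-sample columns, counts the authors normalized with DESeq2, and the columns of their comparisons (fold changes and p-values) were not used. Total counts were 19521877 to 27288843 per library (median 24531756). Replicates differed by more than counting error (chi-square per gene 4.00 to 13.28), and none was counted as a repeat of another. Since counts give no absolute RNA amount, all values are relative to the library.

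Counts were analysed with edgeR 4.0.16 in R 4.3.3. Genes with at least 0.5 CPM in at least 3 libraries were kept (11626), TMM factors were applied (also to the CPM given), and 1 quasi-likelihood model was fitted to the 4 groups (common biological coefficient of variation 5.35%). The Benjamini-Hochberg adjustment ran over all genes tested. The standard error was the log2 fold change divided by the square root of F. A call needed an adjusted p under 0.05, and a second rule a fold of at least 1.5 as well. Steps were tested on simulated data. Alternatives were RLE and upper-quartile factors, no filter, a filter of 1 CPM, DESeq2 1.42.0, voom of limma 3.58.1, a fit to the groups compared only, a replicate block, and each library left out.

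The members and the further lists were chosen with earlier results of these data known. Values by library are given for the genes among the 5 largest called changes per direction in any of the 5 comparisons, and, of each further list, for the 4 genes with the largest called interaction, which include Acod1 and Pdk1. Those 2 and Cpt1b were also set by name, and a further gene set by name is not reported here. Promoter windows and motif counts used the RefSeq sequences of GRCm38.p6, and transcript lengths the GENCODE annotation. Cell type markers were looked up by symbol.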

Additional observations from a re-analysis of the deposited data

Results flagged for a closer look

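The effect of OGD/R differed between the lines, by the interaction term of the edgeR model at an adjusted p under 0.05, for 31 of the 39 genes, 8 further genes of the pathways and Anxa2 itself. Of all 11626 genes tested, 34.9% passed as positive and 35.1% as negative. Values are the log2 change after OGD/R in shAnxa2 minus that in shCtrl. In pyruvate entry they were -0.34 for Pdha1, -0.56 for Dlat, -0.74 for Dld, 0.22 for Pdhx and -1.34 for Pcx. At citrate and isocitrate they were 0.23 for Cs, -0.57 for Idh1, -0.85 for Idh2, 0.53 for Idh3a and -0.43 for Idh3g. From oxoglutarate to succinate they were -0.22 for Dlst, -0.40 for Sucla2, -0.20 for Suclg1 and -0.81 for Suclg2. From succinate to malate and pyruvate they were -0.20 for Sdha, -0.45 for Sdhb, -0.66 for Sdhc, -0.30 for Fh1, -0.56 for Mdh1, 0.45 for Me1 and -0.48 for Me2.

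In fatty acid oxidation the values were 1.61 for Cpt1a, -1.04 for Cpt2, -0.84 for Acadl, -0.41 for Acadvl, -0.31 for Hadha, -0.18 for Hadh, -1.39 for Echs1, -0.41 for Acaa2, -0.78 for Etfa and -0.45 for Etfdh. Among the further genes they were -4.28 for Acod1, -4.08 for Pdk2, -2.57 for Pck2, -1.34 for Pdk1, -2.35 for Mlycd, -2.33 for Acox3, 2.17 for Acacb and -1.97 for Acad10. For Anxa2 the value was -1.74, where the transcript rose after OGD/R in shCtrl and fell in shAnxa2.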

How the results depend on the processing

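Of 245 single-gene results (39 members and the further named genes in 5 comparisons), 4842 values under alternatives were computed; none that was called changed direction, 4670 kept direction and side of the threshold, 98 lost the call and 74 gained it. With upper-quartile factors, the median log2 changes of the 39 genes were 0.22 and -0.19 after OGD/R in shCtrl and shAnxa2, 0.27 and -0.15 between the lines in CTRL and after OGD/R, and -0.42 for the interaction, and 3 genes rather than 5 were lower in shAnxa2 in CTRL. This scaling moved the median of all genes by less than 0.1 (log2), to at most -0.078 for the interaction. Without the level filter the medians were -0.18 after OGD/R in shAnxa2 and -0.37 for the interaction. The cause was not tested. Leaving out 1 library at a time, the medians ranged from 0.17 to 0.21 (OGD/R in shCtrl), -0.14 to -0.11 (lines after OGD/R) and -0.39 to -0.33 (interaction), the genes changed at least 1.5-fold in shAnxa2 from 1 to 2, those higher in shAnxa2 after OGD/R from 5 to 9, and those lower in shCtrl and higher in shAnxa2 after OGD/R from 1 to 2. The lowest or highest of each of these counts was reached without shAnxa2 OGD/R replicate 3. Larger counts moved too. Genes higher in shCtrl and lower in shAnxa2 after OGD/R ranged from 16 to 22, and those rising in shCtrl from 23 to 26. Those falling in shAnxa2 ranged from 18 to 25, and those lower in shAnxa2 than in shCtrl after OGD/R from 17 to 22.

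Libraries with the same replicate number did not deviate together (18 pairs, r from -0.078 to 0.18, median 0.015, against 0.00018 for other numbers), and 4 of 12 libraries correlated best with their own number. With the replicate number as a block, 242 of the 245 results kept their call. Hadha between the lines after OGD/R lost it (-0.10, adjusted p = 0.0525), and Ogdh in shCtrl (0.11, adjusted p = 0.0455) and Acaa2 in shAnxa2 (-0.13, adjusted p = 0.0487) after OGD/R gained it. Depth limited Etfb, with 74 counts in its lowest library, and Pdk2, Acacb, Cpt1b and Pparg, at a few CPM or less.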

Other observations

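The regulators of these pathways were tested for 6 of 8 genes, those left out, Ppara and Ppargc1a, being below the level filter. After OGD/R in shCtrl 1 rose and 3 fell (32.4% and 31% of all genes tested), and in shAnxa2 2 rose and 1 fell (28.2% and 26.8%). Ppard, a lipid-sensing nuclear receptor, changed by 0.91 ± 0.06 (SE, adjusted p = 1.7e-12) in shCtrl and -0.78 ± 0.06 (SE, adjusted p = 2.58e-10) in shAnxa2. Pparg, a related receptor, changed by -1.34 ± 0.40 (SE, adjusted p = 0.00501) and 0.42 ± 0.38 (SE, adjusted p = 0.365). Its level was near the filter, at 0.274 to 1.21 CPM (7 to 33 counts) per library. Ppargc1b, a coactivator of mitochondrial genes, changed by -0.42 ± 0.11 (SE, adjusted p = 0.00185) and 0.38 ± 0.12 (SE, adjusted p = 0.00783). Esrra, the estrogen-related receptor alpha, changed by 0.01 ± 0.05 (SE, adjusted p = 0.906) and 0.38 ± 0.05 (SE, adjusted p = 1.52e-06). Tfam, which packages and transcribes mitochondrial DNA, changed by -0.18 ± 0.06 (SE, adjusted p = 0.0125) and 0.11 ± 0.06 (SE, adjusted p = 0.115), and Nrf1, a regulator of nuclear genes for mitochondria, by 0.11 ± 0.06 (SE, adjusted p = 0.128) and 0.03 ± 0.06 (SE, adjusted p = 0.744).

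Peroxisomes shorten very long fatty acids by an oxidation of their own. Of their 7 tested genes, 5 rose and 1 fell after OGD/R in shCtrl, and 2 rose and 4 fell in shAnxa2, against the shares of all genes given above for each line. Between the lines, 4 were higher and 2 lower in shAnxa2 in CTRL, and 1 was higher and 5 lower after OGD/R, against 29.5% and 29.7% of all genes tested in CTRL and 33.8% and 34.2% after OGD/R. Of the 11 tested genes of anaplerosis, export and shuttles, 3 rose and 4 fell in shCtrl and 5 rose and 4 fell in shAnxa2, with median log2 changes of -0.05 and 0.11. Of the 4 tested genes for succinate dehydrogenase assembly, 1 rose and 1 fell in shCtrl and 1 rose in shAnxa2. These counts too stand beside the shares of all genes above.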
